A study of Mus musculus with 4 samples.

Results

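Podosome, actin ring and Arp2/3 genes encode the machinery with which macrophages and osteoclasts build podosomes, the dot-like adhesions that osteoclasts gather into the ring sealing off a patch of bone. The 39 genes were chosen by symbol from a fixed list of podosome scaffolds, actin nucleators and bundlers, and small GTPases, a rule that applies no threshold to measured values. All 39 of 39 were found among the 17194 gene symbols of the count table, and all 39 were among the 15651 genes tested. The libraries were made from polyadenylated RNA of primary mouse bone marrow macrophages that had received RANKL, the osteoclast-inducing cytokine, and were taken on day 2. The libraries formed 2 groups, siHells (an siRNA against the chromatin remodeller Hells, n = 2) and siControl (n = 2), so RANKL exposure was common to every library. The sources used here do not give the strain, sex or age of the mice, the siRNAs' sequences, or how many mice or cultures the RNA came from. P-values therefore measure only the spread between these libraries, which may be technical.

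A podosome has a core of branched actin, nucleated by the Arp2/3 complex when WASP or related proteins activate it, and a surrounding ring of adhesion plaque proteins that ties integrins to actin. Kinases and adaptors such as Src and Pyk2 relay integrin signals to this structure, bundling and severing proteins shape its filaments, and small GTPases such as Rac and Cdc42 set its turnover. Loss of Src in mice leaves osteoclasts that do not form a normal ruffled border and causes osteopetrosis.

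Total counts were 55642819 and 55012697 in the siHells libraries and 53502523 and 48873635 in the siControl libraries. The targeted gene Hells fell 1.99-fold in siHells, at 14.9 ± 0.390 CPM (counts scaled to library size by TMM; SD, n = 2) against 29.7 ± 0.459 CPM in siControl (n = 2). Of 8 listed macrophage markers, 7 rose and 1 fell (Cd68, log2 fold change -0.28). Among them, Csf1r, which encodes the M-CSF receptor of macrophages, averaged 2874 CPM in siHells and 1730 CPM in siControl, and Adgre1, which encodes the macrophage protein F4/80, had 1257 and 1274 CPM in siHells against 805 and 831 CPM in siControl. The osteoclast genes Acp5 and Ctsk were also abundant, at 479 and 202 CPM in siHells against 2388 and 1423 CPM in siControl, and 10 of 10 listed osteoclast markers fell. Of 13 stromal and smooth muscle markers, 12 were in the table, 10 rose and 1 fell (Col3a1). Their summed level was 2299 and 2246 CPM in the siHells libraries against 1283 and 1314 CPM in the siControl libraries. The part of these markers in the results below was not tested. In bulk RNA, fewer cells of a type and less RNA per cell cannot be told apart.

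Of the 39 genes, 23 fell and 10 rose in siHells, where fell and rose mean an adjusted p under 0.05 in edgeR's quasi-likelihood test, adjusted after Benjamini and Hochberg across the whole table. Of all genes tested 58.5% were called in either direction, 29.5% lower and 29% higher, and among the 1000 most abundant genes 45% were lower and 38.9% higher. By CPM, 27 of the 39 genes lay among those 1000. The shares of all genes and of those 1000 are also the reference for the counts per role below. The groups did not overlap for 37 genes, or 94.9%, against 78.5% of all genes tested. That share was not computed among the 1000 most abundant genes, so its dependence on abundance was not tested. The median log2 fold change, siHells over siControl, was -0.14 for the 39 genes (-0.22 with library totals as the scaling), -0.00 over all genes tested and -0.04 among the 1000 most abundant genes. Together the 39 genes held 1.45% of the counts in each siHells library, against 1.81% and 1.82% in the siControl libraries.

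Most of these differences were small. Of the 33 genes called, 22 had changed by less than 1.5-fold, and 9 passed a test against a 1.5-fold change: Src, Rac2, Sh3pxd2a, Pstpip1, Capg and Lcp1 lower, and Fscn1, Ptk2 and Cbl higher. Called at 2-fold or more were Src among the falls and Fscn1 among the rises, where 5.52% of all genes tested were lower and 6.75% higher by that rule.

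**Figure D1:**
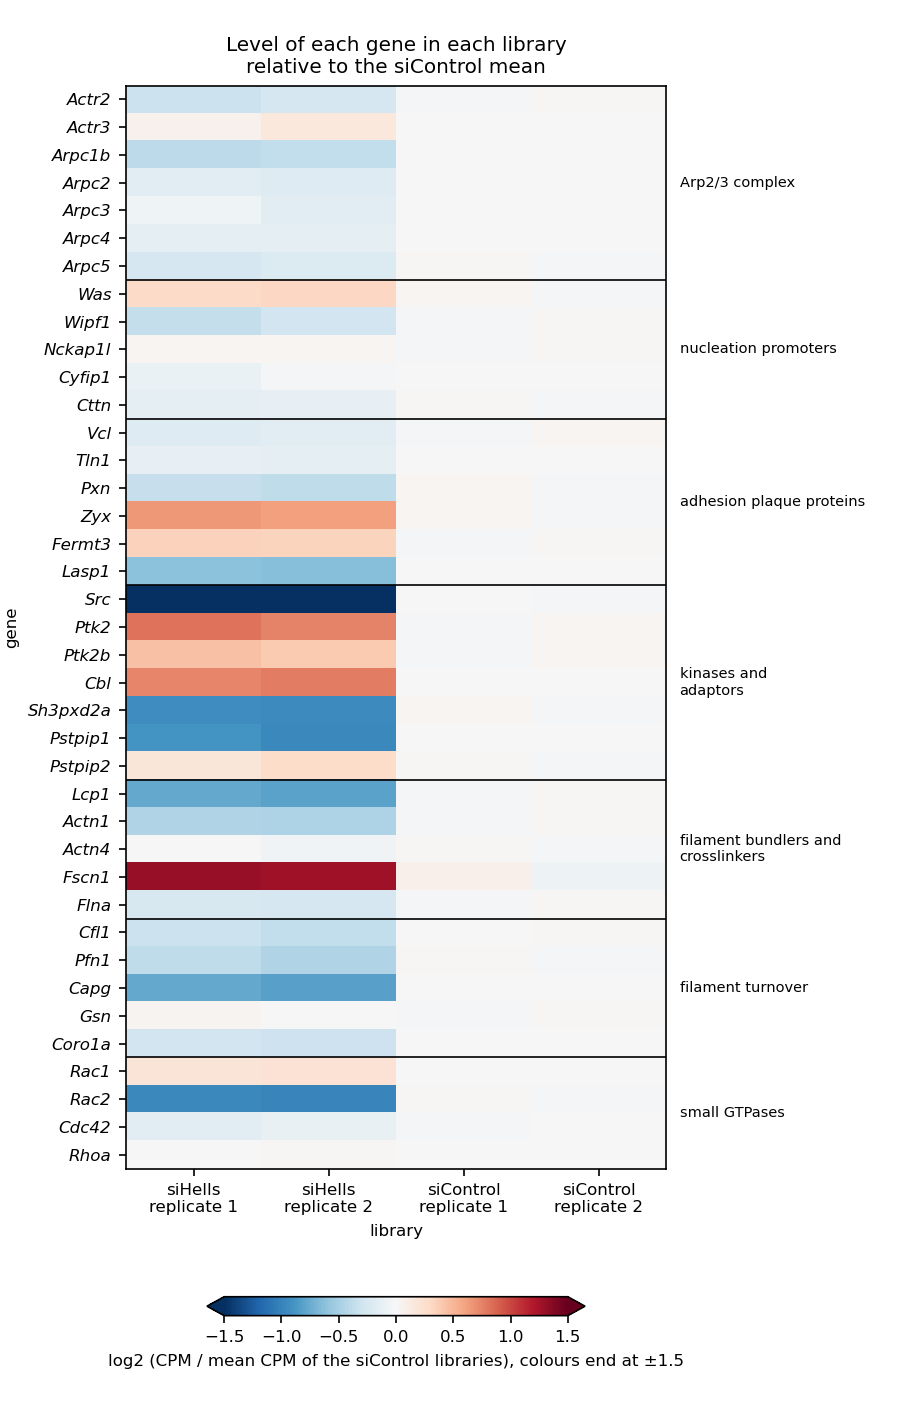
Level of each of the 39 genes in each library, as log2 of its CPM over the mean of the siControl libraries, with genes in rows grouped by role and libraries in columns (siHells left, siControl right). Replicates of a group have like colours, and the strongest blue and red in the siHells columns are Src and Fscn1.

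Promoter sequence was available for 29 of the 39 genes in RefSeq (GRCm38.p6, 36 windows), and 4 of them are printed because their genes changed most among those with a window at just 1 start: Src, Pstpip1 and Capg, which fell, and Fscn1, which rose. They are the 250 bases before the annotated start, 5′ to 3′ on the gene's strand, with each CG dinucleotide in capitals, since CG is the site of the DNA methylation that Hells supports. The windows lie at chr2:157424043-157424292 for Src, chr9:56089726-56089975 for Pstpip1, chr6:72549397-72549646 for Capg and chr5:142960105-142960354 for Fscn1, all on the plus strand. The Src and Capg windows precede RefSeq starts that lie inside the GENCODE genes, which begin at chr2:157418444 and chr6:72544391.
Src: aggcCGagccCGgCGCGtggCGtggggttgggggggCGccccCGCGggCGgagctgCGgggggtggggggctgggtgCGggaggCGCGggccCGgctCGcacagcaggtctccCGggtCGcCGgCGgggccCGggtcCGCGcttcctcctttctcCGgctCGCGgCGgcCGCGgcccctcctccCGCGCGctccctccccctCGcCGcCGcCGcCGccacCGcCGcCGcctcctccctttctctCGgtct
Pstpip1: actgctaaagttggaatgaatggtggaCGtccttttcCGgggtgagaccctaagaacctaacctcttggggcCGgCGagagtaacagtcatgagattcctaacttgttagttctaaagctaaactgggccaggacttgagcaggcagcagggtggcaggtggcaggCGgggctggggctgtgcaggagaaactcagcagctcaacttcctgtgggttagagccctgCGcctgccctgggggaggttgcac
Capg: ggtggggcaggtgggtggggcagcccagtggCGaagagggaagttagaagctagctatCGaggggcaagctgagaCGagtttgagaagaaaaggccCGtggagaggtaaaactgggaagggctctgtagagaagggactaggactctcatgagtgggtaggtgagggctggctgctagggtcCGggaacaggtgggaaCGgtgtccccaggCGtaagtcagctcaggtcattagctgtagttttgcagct
Fscn1: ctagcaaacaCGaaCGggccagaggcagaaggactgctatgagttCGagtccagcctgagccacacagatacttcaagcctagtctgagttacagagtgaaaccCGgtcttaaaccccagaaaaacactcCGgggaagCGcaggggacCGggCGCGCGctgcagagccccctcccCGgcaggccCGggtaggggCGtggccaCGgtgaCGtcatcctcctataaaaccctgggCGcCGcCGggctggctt

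The Src window held 40 CG dinucleotides, more than 98.7% of the 32851 RefSeq windows, and the Fscn1 window held 18. Those of Pstpip1 and Capg held 6 and 7, more than 49.6% and 53.7% of all windows. The median was 15.5 over the 24 windows of genes that fell and 16.5 over the 6 windows of genes that rose, against 6 over all windows, which include those of noncoding genes and pseudogenes. DNA methylation was not measured here. In the same 250 bases, on both strands, the AP-1 letters TGANTCA were found in 2 of the 36 windows of the 29 genes (Actn4 and Zyx). They were found in 6.75% of all windows. The NFAT letters TGGAAA were found in 3 of the 36 and in 18.6% of all windows. The PU.1 letters GAGGAA were found in 5 of the 36, among them that of Src, and in 23.3% of all windows. A CArG box, the site of serum response factor, was found in 2 of the 36 (Vcl and Arpc4) and in 1.47% of all windows. These matches describe letters and not binding.

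The genes of the Arp2/3 complex moved by small amounts, 6 of 7 lower and 1 higher. Actr2, which encodes Arp2, had 619.8 and 650.5 CPM in the siHells libraries against 766 and 784 CPM in the siControl libraries. Actr3, which encodes the partner actin-like subunit Arp3, had 930.0 and 991 CPM in siHells against 885 and 892 CPM in siControl. The groups did not overlap for either gene, and their signs were opposite, with log2 fold changes of -0.29 (SE 0.0301, edgeR adjusted p = 7.89e-07) and 0.11 (SE 0.0308, edgeR adjusted p = 0.00578). The rise of Actr3 was not called with library totals (log2 fold change 0.04) or without siControl replicate 1 (0.10), and its adjusted p ranged from 1.27e-06 to 0.295 over the alternatives other than the test against a 1.5-fold change. A processed pseudogene, Gm8822, shares 2348 bases with Actr3 at 98.8% identity and is counted separately, so reads may be split between them.

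Among the subunits that hold these together, Arpc1b, the form of Arpc1 that predominates in blood cells, fell most. It had 471 and 477 CPM in siHells and 620 and 613 CPM in siControl, a log2 fold change of -0.38 (SE 0.0279). Arpc5, Arpc2, Arpc4 and Arpc3 followed with -0.23, -0.19, -0.14 and -0.11. Arpc3 was not called without siHells replicate 2 (-0.06), siControl replicate 1 (-0.11) or siControl replicate 2 (-0.10), nor at an adjusted p under 0.01, and its adjusted p ranged from 6.81e-05 to 0.136 over the same alternatives. Of the exon bases of Arpc1b, 931 also belong to Pdap1 on the opposite strand, and the pseudogene Gm5637 shares 1119 bases with it.

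Per kb of exon, the level differed between the subunits. In siHells it ran from 92.7 CPM per kb for Arpc1b and 107.7 for Arpc3 up to 266 for Arpc2, and in siControl from 116 for Arpc3 and 120.5 for Arpc1b up to 303 for Arpc2. The alternative subunits were lower: Arpc1a, the second form of Arpc1, had 29.6 CPM per kb in siHells against 25.9 in siControl. Arpc1a rose (log2 fold change 0.19, edgeR adjusted p = 0.00222) while Arpc1b fell. The Arpc1b share of the pair's reads per kb was 75.0% and 76.5% in the siHells libraries against 82.4% and 82.2% in the siControl libraries. Arpc5l did not pass the test (log2 fold change 0.02), and Actr3b, with 7 and 10 counts in siHells against 36 and 12 in siControl, was near the limit of detection. Lengths are the union of all annotated exons, which understates the level of genes with long or retained exons.

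**Figure D2:**
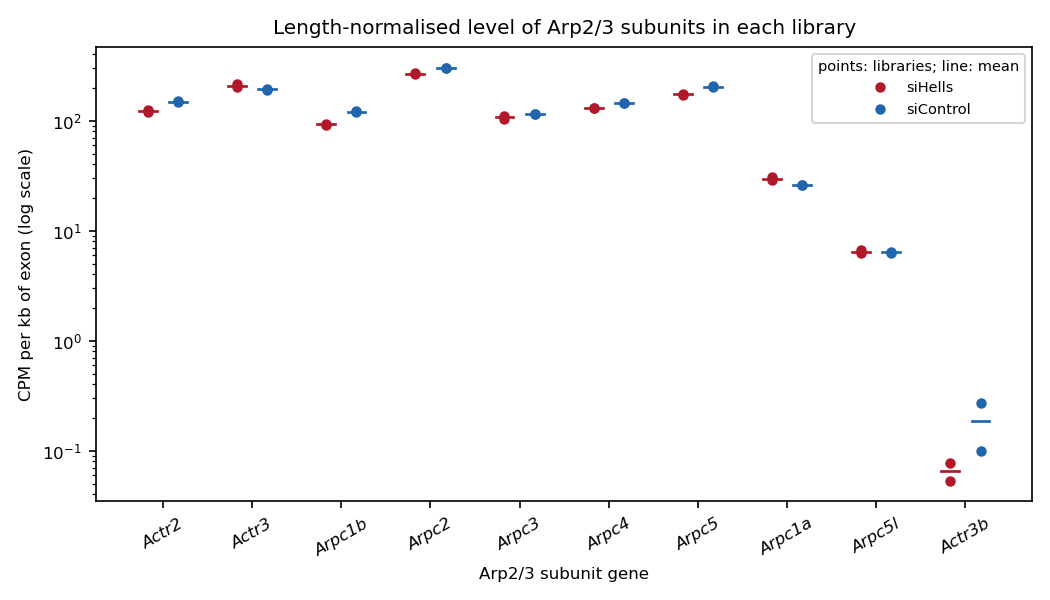
CPM per kb of exon, on a log scale, of the 7 Arp2/3 genes and of 3 alternative subunits, with siHells left of siControl for each gene, a point per library and a line at the mean. The 7 subunits lie between 92.7 and 303 CPM per kb, above Arpc1a, Arpc5l and Actr3b.

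Of the 5 genes of Arp2/3 activators, their binding partners and WAVE complex subunits, 1 rose and 1 fell, with a median absolute log2 fold change of 0.13. Was, which encodes WASP, the nucleation promoter of podosome cores in blood cells, had 108.6 and 111 CPM in siHells against 91.2 and 87.3 CPM in siControl, a log2 fold change of 0.30 (SE 0.0407, edgeR adjusted p = 1.41e-05). Wipf1, whose product WIP binds and stabilises WASP, moved the other way, with 169 and 177 CPM in siHells against 212 and 219 CPM in siControl and a log2 fold change of -0.32 (SE 0.0362). Within that pair of partners the groups did not overlap and the signs were opposite.

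Nckap1l and Cyfip1, subunits of the WAVE complex that acts downstream of Rac, did not pass the test, with log2 fold changes of 0.03 (SE 0.0273, edgeR adjusted p = 0.353) and -0.06 (SE 0.0307, edgeR adjusted p = 0.0895). Cttn, the cortactin gene, was at 34.6 and 34.9 CPM in siHells against 38.6 and 37.5 CPM in siControl, with a log2 fold change of -0.13 and an adjusted p of 0.052. Over the alternatives other than the test against a 1.5-fold change, the adjusted p of Cttn ranged from 0.00502 to 0.219 and that of Cyfip1 from 0.00124 to 0.413, so both calls rested on the setting. The blood-cell relative of cortactin, Hcls1, took most of that pair's reads per kb and rose (log2 fold change 0.20), leaving Cttn with 7.14% and 7.55% in siHells against 9.27% and 8.87% in siControl. Cyfip2, the paralog of Cyfip1, fell by 0.91 on the log2 scale, and 1316 exon bases of Cyfip1 also belong to Nipa2 on the opposite strand.

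In the adhesion plaque, 4 of 6 genes fell and 2 rose. Lasp1, an actin-binding LIM protein of podosomes, had 284 and 279 CPM in siHells against 436 and 434 CPM in siControl, a 1.54-fold fall (log2 fold change -0.63, SE 0.0297, edgeR adjusted p = 6.46e-11). Pxn, the scaffold paxillin, had 187 and 181.5 CPM in siHells against 241 and 233 CPM in siControl, with a log2 fold change of -0.36. Vcl (vinculin) and Tln1 (talin), which link integrins to actin, changed less, with log2 fold changes of -0.18 and -0.13, although their groups did not overlap.

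Zyx, the gene of zyxin, a LIM protein of focal adhesions that carries Ena/VASP proteins to actin, rose 1.55-fold. It had 113 and 110.1 CPM in siHells against 73.1 and 70.6 CPM in siControl (log2 fold change 0.64, SE 0.0416, edgeR adjusted p = 3.15e-09). Fermt3, the kindlin of blood cells that activates integrins, had 426 and 424 CPM in siHells against 332 and 339 CPM in siControl, with a log2 fold change of 0.34. Its paralog Fermt2, the kindlin of many other cell types, rose by 0.96 on the log2 scale beside the stromal markers given above. Fermt3 held 92.8% and 92.3% of the pair's reads per kb in siHells against 95.4% and 94.6% in siControl. For Vcl, 2090 exon bases also belong to Ap3m1 on the opposite strand.

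The kinases and adaptors diverged most, with 3 of 7 lower and 4 higher. Src, the tyrosine kinase that phosphorylates podosome proteins, had 2421 and 2320 counts in the siHells libraries against 12061 and 10803 in the siControl libraries. That was 44.7 and 43.2 CPM against 219 and 216 CPM, a 4.95-fold fall (log2 fold change -2.31, SE 0.0399, edgeR adjusted p = 5.36e-16). The gene lies at chr2:157418444-157471862 of GRCm38 on the plus strand. Leaving out any library kept the log2 fold change of Src between -2.33 and -2.28.

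The kinase genes Ptk2b and Ptk2 and the adaptor gene Cbl rose. Ptk2b encodes Pyk2, the main focal adhesion kinase family member of osteoclasts, and had 167 and 162 CPM in siHells against 121 and 125.5 CPM in siControl (log2 fold change 0.42, SE 0.0376). Ptk2, the gene of FAK itself, had 37.5 and 35.8 CPM in siHells against 20.9 and 21.8 CPM in siControl, a 1.72-fold rise (SE 0.0623 on the log2 scale, edgeR adjusted p = 3.38e-08). Cbl, a ubiquitin ligase and adaptor bound by Src and Pyk2, had 353 and 363 CPM in siHells against 214 and 211 CPM in siControl, a 1.68-fold rise (log2 fold change 0.75, SE 0.0318). Its paralog Cblb rose too (0.63). The groups did not overlap for any of these genes.

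Sh3pxd2a, which encodes the Src substrate and podosome scaffold Tks5, had 66.6 and 65.8 CPM in siHells against 130 and 125 CPM in siControl, a 1.92-fold fall (log2 fold change -0.94, SE 0.0411, edgeR adjusted p = 2.38e-11). Its paralog Sh3pxd2b (Tks4) rose, with a log2 fold change of 0.97 (edgeR adjusted p = 1.31e-12). The Sh3pxd2a share of the pair's reads per kb was thus 16.1% in both siHells libraries against 42.2% and 41.9% in the siControl libraries, the widest shift among the pairs compared. Pstpip1, an F-BAR adaptor that binds WASP, had 120.2 and 114 CPM in siHells against 223.2 and 222.7 CPM in siControl, a 1.90-fold fall (log2 fold change -0.93). The related Pstpip2, whose loss in mice causes inflammatory bone disease, had 52.7 and 56.4 CPM in siHells against 47.1 and 45.8 CPM in siControl, with a log2 fold change of 0.23 (SE 0.0520). Pstpip1 held 58.2% and 55.3% of that pair's reads per kb in siHells against 74.3% and 74.8% in siControl.

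**Figure D3:**
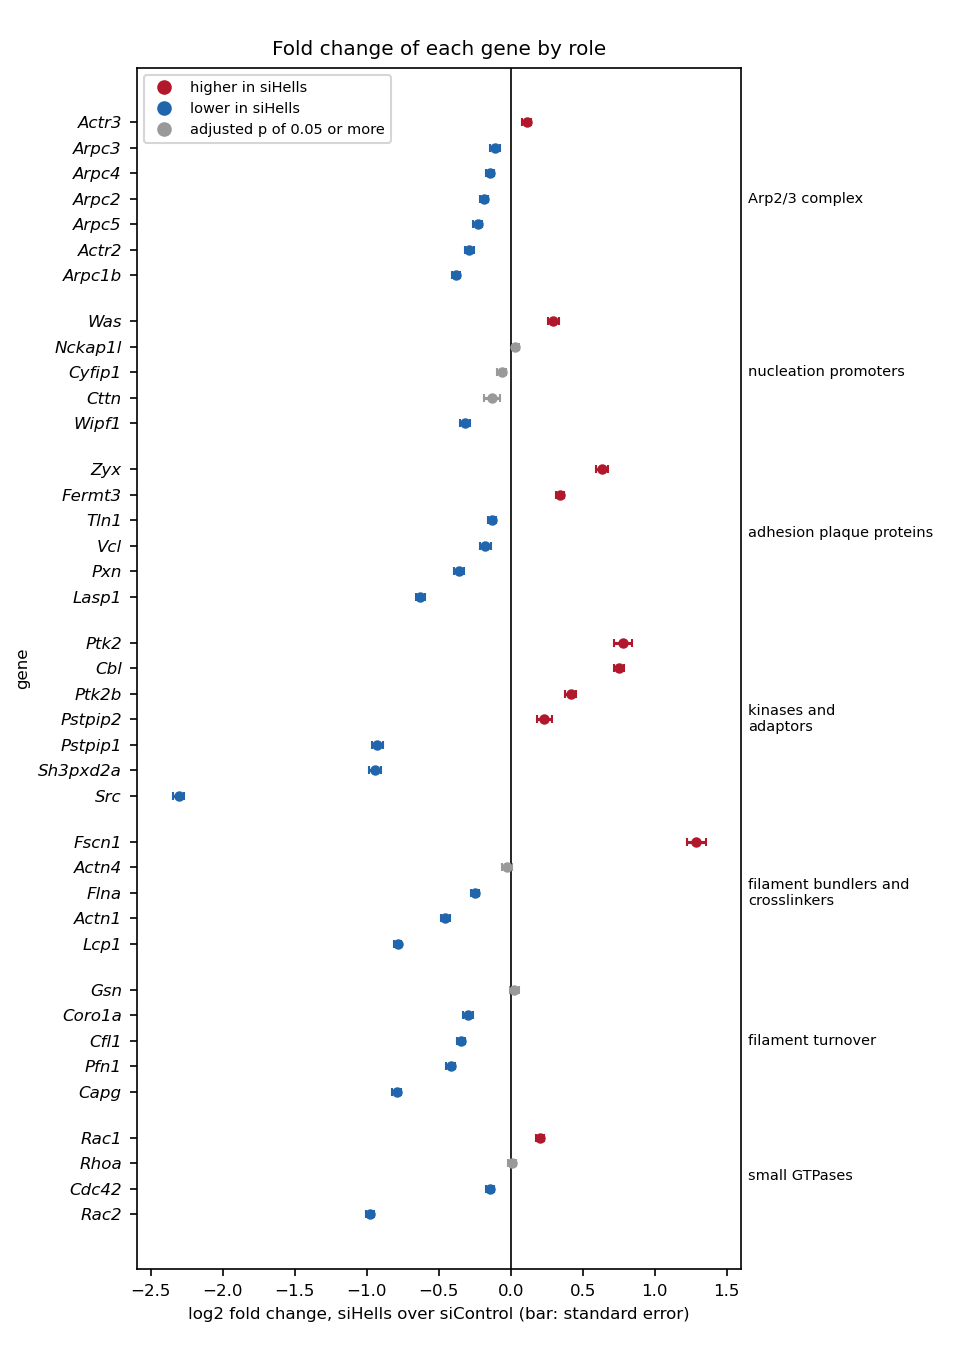
Log2 fold change, siHells over siControl, of each of the 39 genes by role, with its standard error as a bar and colour for genes that rose (red), fell (blue) or had an adjusted p of 0.05 or more (grey). Src (-2.31) and Fscn1 (1.29) lie at the ends, and the Arp2/3 genes lie within 0.38 of 0.

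Among the genes that bundle and crosslink filaments 3 of 5 fell, and their summed level was 2578 and 2539 CPM in siHells against 3557 and 3614 CPM in siControl. Lcp1, the L-plastin of white blood cells, was the most abundant of the 39 genes by CPM, with 1107 and 1088 CPM in siHells against 1874 and 1908 CPM in siControl. It fell 1.72-fold (log2 fold change -0.78, SE 0.0253, edgeR adjusted p = 6.31e-13). Its paralog Pls3, a plastin of solid tissues, rose by 0.37 on the log2 scale. Actn1, the alpha-actinin of focal adhesions, had 226 and 225 CPM in siHells against 306 and 312 CPM in siControl (log2 fold change -0.46). Actn4 had a log2 fold change of -0.03 (edgeR adjusted p = 0.514) and overlapping groups, and was called lower with library totals (-0.10, edgeR adjusted p = 0.0155). Actn1 held 45.9% and 46.7% of the pair's reads per kb in siHells against 53.2% and 54.3% in siControl. Flna, the filamin A gene, fell by 0.25 on the log2 scale.

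Fscn1, whose product fascin packs filaments into parallel bundles, rose most of the 39 genes. It had 2351 and 2266 counts in siHells against 1013 and 827 in siControl, or 43.4 and 42.2 CPM against 18.4 and 16.5 CPM. The log2 fold change was 1.29 (SE 0.0662, edgeR adjusted p = 1.68e-10), a 2.44-fold rise, and it lay between 1.22 and 1.37 with any library left out. The gene lies at chr5:142960343-142973185 of GRCm38 on the plus strand. Fibroblasts and dendritic cells also make fascin. The stromal list rose beside it, as given above, and 3 of 6 listed dendritic cell markers were in the table, with a summed level of 8.19 and 8.09 CPM in siHells against 4.38 and 4.74 CPM in siControl. Their part in the rise of Fscn1 was not tested.

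In filament turnover 4 of 5 genes fell and none rose. Capg, which caps filament ends and is abundant in macrophages, had 509 and 492 CPM in siHells against 861 and 873.5 CPM in siControl, a 1.73-fold fall (log2 fold change -0.79, SE 0.0285, edgeR adjusted p = 2.27e-12). Pfn1 (profilin, which supplies actin monomers), Cfl1 (cofilin, which severs filaments) and Coro1a (coronin of blood cells) fell with log2 fold changes of -0.42, -0.34 and -0.30. Cfl1 had the highest level per kb of the 39 genes in siHells and in siControl, at 327 and 415 CPM per kb. The summed level of the group was 2541 and 2451 CPM in siHells against 3299 and 3326 CPM in siControl.

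Gsn, the gelsolin gene needed for podosome formation in mouse osteoclasts, stood apart with 409.8 and 398 CPM in siHells against 392.5 and 402 CPM in siControl, a log2 fold change of 0.02 (SE 0.0304, edgeR adjusted p = 0.515). Its paralog Scin, the adseverin of osteoclasts, had 175 and 200 counts in siHells against 2813 and 2884 in siControl and fell by 3.96 on the log2 scale (SE 0.0969, edgeR adjusted p = 2.45e-14). Gsn therefore held 99.2% and 99.0% of the pair's reads per kb in siHells against 87.9% and 86.9% in siControl.

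The small GTPases differed among themselves. Rac2, the Rac of blood cells, had 229.5 and 225 CPM in siHells against 452 and 443 CPM in siControl, a 1.97-fold fall (log2 fold change -0.98, SE 0.0308, edgeR adjusted p = 4.83e-13). Rac1, the Rac found in nearly all cells, had 408 and 416 CPM in siHells against 357 and 358 CPM in siControl (log2 fold change 0.20, SE 0.0294, edgeR adjusted p = 2.23e-05). Per kb, the order of the pair turned: Rac1 had 91.6 CPM per kb and Rac2 73.2 in siHells, against 79.5 and 144 in siControl. The Rac1 share was 55.1% and 56.1% in the siHells libraries against 35.3% and 35.8% in the siControl libraries. Of the exon bases of Rac1, 2309 also belong to Daglb on the opposite strand, so its level is uncertain without strand.

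Cdc42, which activates WASP, had 781 and 809 CPM in siHells against 869 and 883.5 CPM in siControl, a log2 fold change of -0.14 (SE 0.0279). Rhoa, which drives contraction, had 544.5 and 549 CPM in siHells against 543.7 and 544 CPM in siControl, with a log2 fold change of 0.01 (SE 0.0274, edgeR adjusted p = 0.833). Of all 39 genes it lay nearest to 0, and with library totals it was called lower (-0.07, edgeR adjusted p = 0.045). The pseudogenes Gm12844 and Gm13578 share 582 and 591 bases with Rhoa and are counted separately.

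**Figure D4:**
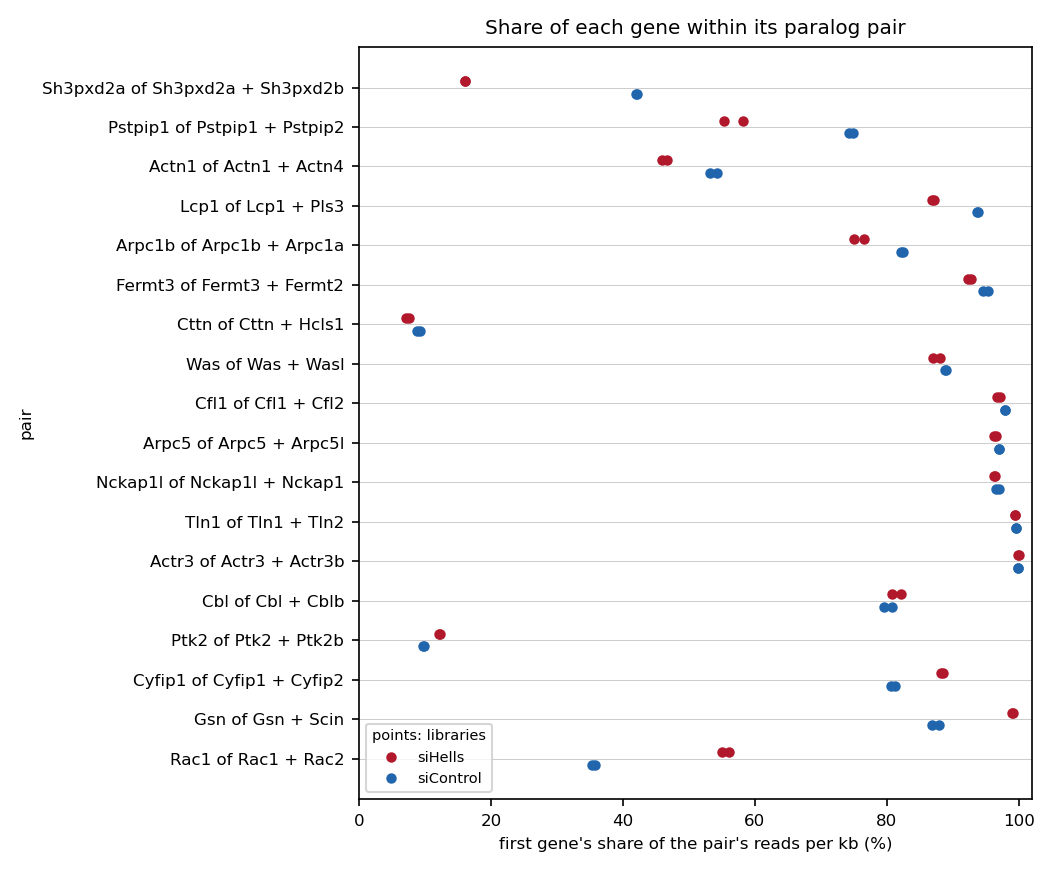
For 18 pairs, share of the first-named gene in the reads per kb of its paralog pair, in percent, with siHells points above siControl points in each row and a point per library. Sh3pxd2a and Pstpip1 show the widest shifts to lower shares in siHells, and Rac1 and Gsn the widest to higher shares.

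Among 18 pairs whose shares did not overlap between groups, 8 shifted by at least 5 percentage points and 8 had called changes of opposite sign. The pairs of opposite sign were Arpc1b with Arpc1a, Actr3 with Actr3b, Rac1 with Rac2, Pstpip1 with Pstpip2, Cfl1 with Cfl2, Sh3pxd2a with Sh3pxd2b, Lcp1 with Pls3 and Tln1 with Tln2. The calls of Actr3b, Cfl2 and Actr3 were lost in several alternatives, with Actr3b at -0.61 without siControl replicate 1. Was and Wasl rose together, with log2 fold changes of 0.30 and 0.49, and Nckap1, whose call was also lost in some alternatives, rose by 0.22 beside Nckap1l, which was not called.

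The rest of the actin machinery, 211 genes in 8 lists, moved more often up than down. Of 205 tested, 101 rose (49.3%) and 64 fell (31.2%), against 29% higher and 29.5% lower among all genes tested. Among the 1000 most abundant genes, more were called, with 38.9% higher and 45% lower. The median log2 fold change of the 205 was 0.12. The shares of all genes are also the reference for the counts per list below. The rises and falls named below are among the largest of their lists, taken among genes whose log2 CPM averaged 1 or more. Among other podosome and focal adhesion proteins 24 of 41 rose and 11 fell. Tns1, the integrin-binding tensin, had 760.5 and 731 CPM in siHells against 95.8 and 94.3 CPM in siControl, a log2 fold change of 2.97 (SE 0.0338, edgeR adjusted p = 4.54e-18). The PI3-kinase subunit Pik3r1 followed (1.14). The metalloproteinase Mmp14 fell to 128 and 131 CPM in siHells, against 455.5 and 463 CPM in siControl (-1.83), and Ablim1 (-2.30) and Lims2 (-1.22) fell too.

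Other nucleation promoters, their partners and WAVE or WASH subunits rose in 11 of 21 cases and fell in 4. The WASH subunit Washc2 (0.91), the F-BAR protein Fnbp1 (0.68) and Wasl (0.49) were the largest rises. Fnbp1l, a Cdc42 effector that recruits N-WASP to membranes, fell to 58.2 and 60.4 CPM in siHells, against 256 and 265 CPM in siControl (log2 fold change -2.14, edgeR adjusted p = 9.63e-16). Cyfip2 and Abi1 (-0.30) were the next falls, and Abi1 was not called without either siControl library (edgeR adjusted p = 0.075 and 0.0578). Among other Arp2/3 subunits and regulators 3 of 9 rose and 2 fell. Gmfg, which removes filament branches, rose (0.81), as did Coro7 (0.36) and Arpc1a, while Arpin, which blocks the complex, fell (-1.35).

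Formins and Ena/VASP proteins, which build unbranched filaments, split into 6 higher and 7 lower of 14. Fmnl2 had 68.3 and 67.0 CPM in siHells against 21.01 and 20.68 CPM in siControl (log2 fold change 1.70, SE 0.0540), and Diaph2 (1.02) and Enah (0.58) rose too. Diaph3 (-0.69), Vasp (-0.65) and Fmnl3 (-0.39) were the largest falls. Among myosins, tropomyosins and their kinases 10 of 26 rose and 7 fell. Myo1e, a podosome myosin, fell to 131 and 122 CPM in siHells, against 410 and 418 CPM in siControl (-1.71), followed by Myo1f (-0.48) and Cit (-0.44). Myl9 (1.14), Tpm2 (0.98) and Myo5a (0.93) rose, and the first 2 are smooth muscle genes that rose beside the stromal list.

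Of actins, monomer binders and cappers, 11 of 30 rose and 13 fell. Actg1, the cytoplasmic gamma actin gene, had 793 and 796 CPM in siHells against 1490 and 1511 CPM in siControl (log2 fold change -0.92, SE 0.0255, edgeR adjusted p = 1.07e-13). Scin and Swap70 (-0.89) were the other large falls, and Eps8 (1.73), Flnc (1.22) and Twf1 (0.69) the largest rises. Of exchange factors, GAPs and GDIs, which switch small GTPases, 26 of 48 rose and 17 fell. Dock5, a Rac activator needed for the osteoclast sealing zone, fell to 128 and 124 CPM in siHells, against 348 and 345 CPM in siControl (-1.46). Srgap3 (-1.65) and Net1 (-1.06) fell, and Fgd2 (1.03) and Arhgap15 (0.86) rose.

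**Figure D5:**
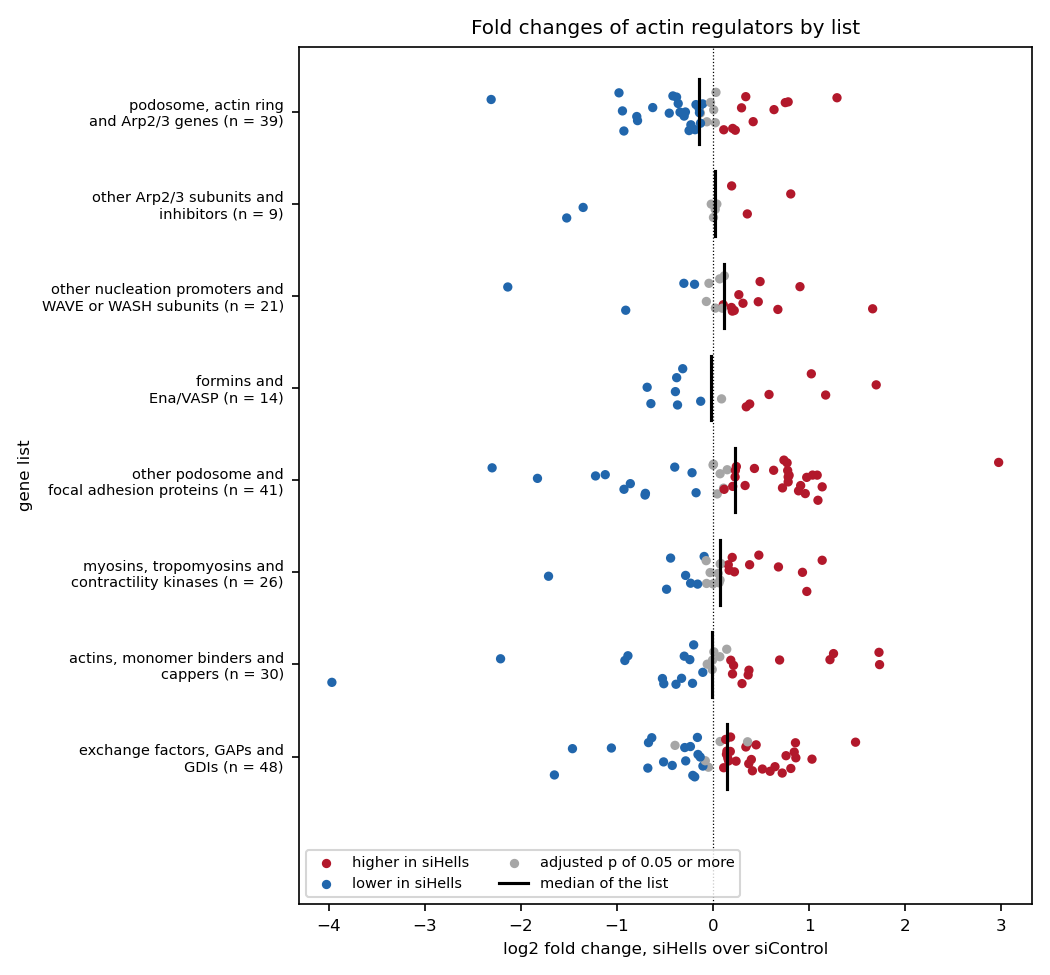
Log2 fold change, siHells over siControl, of each tested gene in the list of 39 genes (top) and in 7 lists of other actin regulators, with a black line at each list's median. The median is -0.14 for the 39 genes and 0.23 for other podosome and focal adhesion proteins, and Tns1 (2.97) and Scin (-3.96) are the outermost points.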

How the data were processed

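Whole-number read counts per gene symbol were deposited by the authors, with no normalization, in 1 table with a column per library. Per the submitters' processing notes, the tools were HISAT2 2.1.0, StringTie 2.1.3b, Trimmomatic 0.38, FastQC and edgeR, with build mm10 and no role stated for any. Which program counted, with which annotation release and strand setting, is not given in the sources. The labels' protocols name 2 library kits, SMARTer and TruSeq Stranded. Whether reads of genes on opposite strands were counted apart is therefore not known. Exons of 14 of the 39 genes overlap a gene on the opposite strand, and 9 have a near-identical stretch (at least 200 bases at 95% identity, blastn 2.17.0) elsewhere. The lowest deposited count was 1, so genes with 0 reads in any library were not analysed here.

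Genes were filtered with filterByExpr (minimum count 10, minimum total 15), which left 15651, scaled by TMM and tested with the quasi-likelihood test of edgeR 4.0.16 (R 4.3.3, robust fit, group as the only term, 2 residual degrees of freedom). P-values were adjusted after Benjamini and Hochberg across these genes, and 0.05 was the threshold. Standard errors are the log2 fold change over the root of the F statistic. CPM are TMM-normalised, and exon lengths and positions are those of GENCODE M21 (GRCm38, the assembly of mm10). Replicates were not duplicates of each other: chi-square per gene between them was 6.69 in siHells and 3.59 in siControl. The procedure was also run on simulated counts in which 200 genes were changed and all genes shared the same dispersion. These data differ from that setting, so the run does not measure error rates here.

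The rule for the 39 members names symbols and applies no threshold to values, but the members and gene lists were chosen with earlier results of these data known. The genes named are the 39 members, Hells, their paralogs, 4 marker genes, and of each further list up to 3 rises and 3 falls with the largest log2 fold change past the threshold at a mean log2 CPM of at least 1, and some of these, with 1 of the lists, are not reported here. Alternatives were scaling by library totals, upper quartiles or DESeq2 size factors, 2 other filters, limma voom (limma 3.58.1), the Wald test of DESeq2 1.42.0, edgeR's legacy fit, a block for the replicate number, a test against a 1.5-fold change, 0.01 as the threshold, and leaving out each library in turn.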

Additional observations from a re-analysis of the deposited data

How the results depend on the processing

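Of the 33 called genes among the 39, 31 kept their call and direction in 14 of the 15 alternatives, the exception being the test against a 1.5-fold change. That test left 3 of the 39 genes higher and 6 lower, and 38 higher and 19 lower among other actin regulators. The 2 whose call changed elsewhere were Actr3 and Arpc3, as given above, and no called gene changed sign. The median log2 fold change of the 39 genes was -0.18 with upper-quartile scaling and -0.22 with library totals, settings that place all genes lower (median -0.04 and -0.08). Of the 6 uncalled genes, Nckap1l, Gsn and Rhoa changed sign with upper-quartile scaling (-0.002, -0.008 and -0.025) and with library totals (-0.043, -0.049 and -0.066). Library totals also turned Actn4, Rhoa, Cttn and Cyfip1 into called falls (-0.100, -0.066, -0.205 and -0.137, with adjusted p of 0.0155, 0.045, 0.00502 and 0.00124 in edgeR). Arpc5l changed sign with upper-quartile scaling and with library totals (-0.010 and -0.050). Actn4 lay between -0.053 and 0.006, Rhoa between 0.000 and 0.015 and Arpc5l between -0.023 and 0.074 with 1 library left out. Leaving out 1 library gave 9 to 10 higher and 22 to 23 lower among the 39 genes, with a median between -0.16 and -0.14, and 91 to 101 higher and 56 to 62 lower among other actin regulators. With the replicate number as a block, 10 of the 39 genes were higher and 23 lower, and 100 and 64 of the other actin regulators. Differences between replicates 1 and 2 correlated across genes by 0.05 between the groups. That value has no reference for paired cultures, so it cannot decide whether the numbers pair the libraries, which the sources used here do not state. With 2 libraries per group, changes near or below the spread between libraries may have been missed.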
